A study of Mus musculus with 8 samples.

Results

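Transcription factors and nuclear receptors that set the identity and the metabolism of liver cells were followed in livers lacking miR-223. The set held 32 genes chosen by name, among them HNF4A, the FOXA factors and the receptors for retinoids, thyroid hormone, oestrogen and glucocorticoids. A gene counted as a member when its symbol stood on a probe of the authors' table that was not a control. Of the 32 genes, 31 were found there, on 61 of the 40646 probes of a table that names 21441 genes. Cebpb was not found under its symbol and was not analysed here. In the end 27 members could be tested, among 16755 genes and unnamed probes.

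The livers came from 4 miR-223KO samples, which lack the microRNA miR-223, and 4 wild-type (WT) samples. Both groups were labelled as male mice of the C57BL/6J strain, and both had eaten a high-fat diet for 3 months, so the comparison was of genotype within that diet alone. The labels name no promoter or cell type for the deletion, and they leave unsaid whether each of the samples was taken from its own animal. P-values therefore measure the spread between these samples, which may be technical. Each liver RNA was labelled with Cy5 and hybridised to its own 2-colour Agilent array beside a Cy3 reference labelled as assorted mouse total RNA. A slide carried 4 arrays, for 2 miR-223KO and 2 WT livers, and 2 slides were used. In Cy5, 49.5% to 69.8% of an array's spots were well above background. miR-223 itself was not analysed here, so the genotype rests on the labels.

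Hepatocytes keep their identity through a network in which HNF4A, FOXA factors, ONECUT factors, PROX1 and C/EBP factors activate each other and many of the genes for plasma proteins and metabolic enzymes. Nuclear receptors bind small lipophilic ligands such as retinoic acid, thyroid hormone and glucocorticoids, and many of them bind DNA as partners of the retinoid X receptors. miR-223 is abundant in neutrophils and other myeloid cells, and in human granulocyte precursors C/EBPα binds its promoter. A microRNA represses transcripts mainly through pairing of its seed, bases 2 to 8 from the 5′ end, with a site in the transcript.

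The deleted microRNA has mature forms from both arms of its hairpin. Their RefSeq sequences are shown because the seed, in capitals, sets which transcript letters the microRNA can pair with.
mmu-miR-223-3p: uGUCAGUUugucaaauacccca
mmu-miR-223-5p: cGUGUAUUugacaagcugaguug
The 3p form spans chrX:96242884-96242905 and the 5p form chrX:96242842-96242864 on the plus strand of GRCm38.p6. The letters that pair with the 3p seed, AACTGAC, were searched in the sense direction of the array's probes of 60 bases. They stood in 2 of the 61 member probes, against 150 of all 40554 probes with a sequence (0.37%). The probes hold only 60 bases of a transcript, so a probe without the match says nothing of the rest of that transcript. The matches, in capitals with 10 probe bases on either side, lay at bases 11 to 17 of an Esrra probe and at bases 36 to 42 of an Nr2f2 probe.
Esrra: ggggaggtgaAACTGACttggtcagaa
Nr2f2: ccttccatagAACTGACtgaaaaccaa
On that Esrra probe the log2 ratios were 0.34, 0.23, 0.19 and 0.34 in miR-223KO livers, against 0.09, 0.80, -0.12 and 0.07 in WT livers. The difference was 0.06, with an unadjusted p of 0.764 in a limma fit of every probe on its own. That Nr2f2 probe read 0.30, 0.11, 0.09 and 0.62 in miR-223KO livers, against 0.32, 0.39, 0.53 and 0.62 in WT livers. Its difference was -0.19, with an unadjusted limma p of 0.325. On both probes the genotypes overlapped, and neither probe is the brightest of its gene. That Nr2f2 probe was well above background on 3 of 4 miR-223KO arrays and 3 of 4 WT arrays. Whether the matches lie in coding sequence or outside it was not determined.

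Before the results, the reference channel needs a statement, since every value is a ratio to it. Its label names mixed mouse tissue, yet hepatocyte genes were bright in Cy3 and genes of most other organs were dim. The 6 hepatocyte genes looked at, among them Alb for albumin and Cps1 for the first enzyme of the urea cycle, had mean processed Cy3 intensities of 13300 to 212000. The 6 brain genes, among them Gfap and Snap25, had 22.1 to 295, and the 6 genes of skeletal muscle and heart had 30.3 to 673. Testis genes reached 5920 in Cy3, but Prm1, a sperm protamine, read 5770 in the liver Cy5 channel too.

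**Figure D1:**
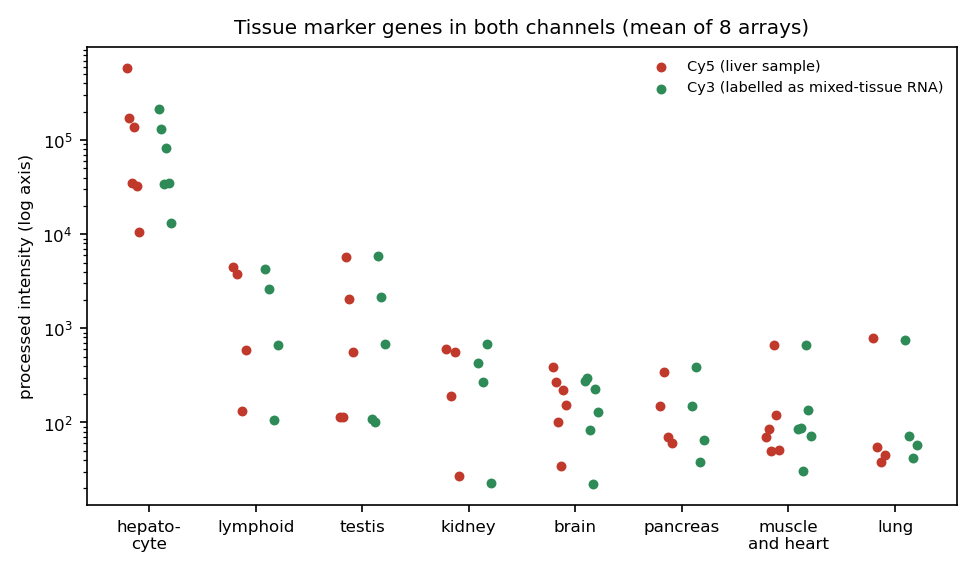
Processed intensity, on a log axis, of tissue marker genes in the liver channel (Cy5, red) and the reference channel (Cy3, green), with each point the mean of 8 arrays for 1 gene. Hepatocyte genes lie at 13300 to 212000 in Cy3, and the genes of brain, muscle, heart, lung, kidney and pancreas lie at 782 or lower in both channels.

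Cy5 and Cy3 of the same array correlated at 0.955 to 0.978 across probes, against 0.928 to 0.966 between the Cy3 channels of different arrays. These are correlations across probes, which are not independent replicates. The mean log2 processed ratio passed 1 in either direction for 1.68% of 22181 bright probes, and for 25 of the 27 members it lay between -0.5 and 0.5. The Cy3 channel did not follow genotype for Ctse, the aspartic protease cathepsin E and the gene with the largest change in the whole comparison. Its processed Cy5 intensity was 10669, 3918, 7356 and 3287 in miR-223KO livers, against 612, 891, 519 and 381 in WT livers. On the same arrays its Cy3 intensity was 3805, 1856, 2581 and 2365 beside miR-223KO livers, against 2467, 2761, 1883 and 2097 beside WT livers. What RNA the Cy3 channel held was not tested. These tissue genes were chosen after the data were seen.

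The members showed no difference between genotypes that passed the test. Across 27 members, 0 had an adjusted p under 0.05 in limma with Benjamini-Hochberg adjustment over all 16755 features, where 2 features (0.0119%) did. At an unadjusted p under 0.05 the count was again 0 of 27, against 4.68% of all features. In 0 of 27 members did the 4 miR-223KO values and the 4 WT values stand apart without overlap, against 3.09% of all features. The log2 fold change, miR-223KO minus WT, was above 0 in 15 members and below 0 in 12, and above 0 in 48.3% of all features. Its median was 0.01 over the members and -0.01 over all features. With arrays centred on their medians in place of loess, 20 members were above 0, the members' median was 0.11 and that of all features 0.08. In whole liver, fewer cells of a type and less RNA per cell cannot be told apart.

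**Figure D2:**
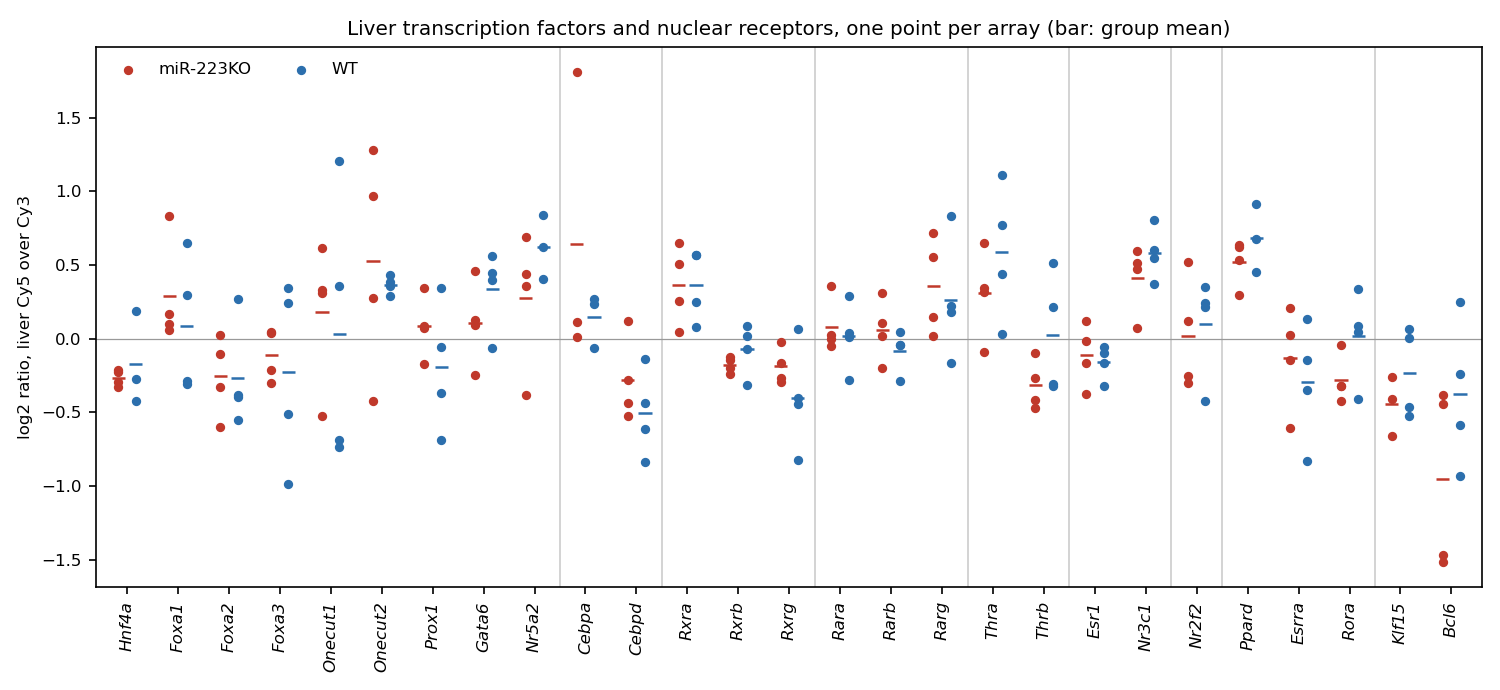
Log2 ratio of liver Cy5 over Cy3 on each array for the 27 tested members, with miR-223KO in red to the left of WT in blue, bars at the group means and grey lines between the groups of related factors. The genotypes overlap in every member shown, and Bcl6, Cebpa and Onecut2 have the widest spread among miR-223KO samples.

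The intervals give the size of difference that the spread between arrays leaves possible. Whether signal of either dye entered the other channel, which would bring ratios closer to 0, was not tested and is not covered by them. The 95% interval of the log2 fold change lay within -1 and 1 for 25 of the 27 members, and the median distance from the estimate to its bound was 0.455. Bcl6 reached down to -1.20 and Cebpa up to 1.31. The absolute log2 fold change was under 0.3 in 23 members, while 81.9% of all features were under it.

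**Figure D3:**
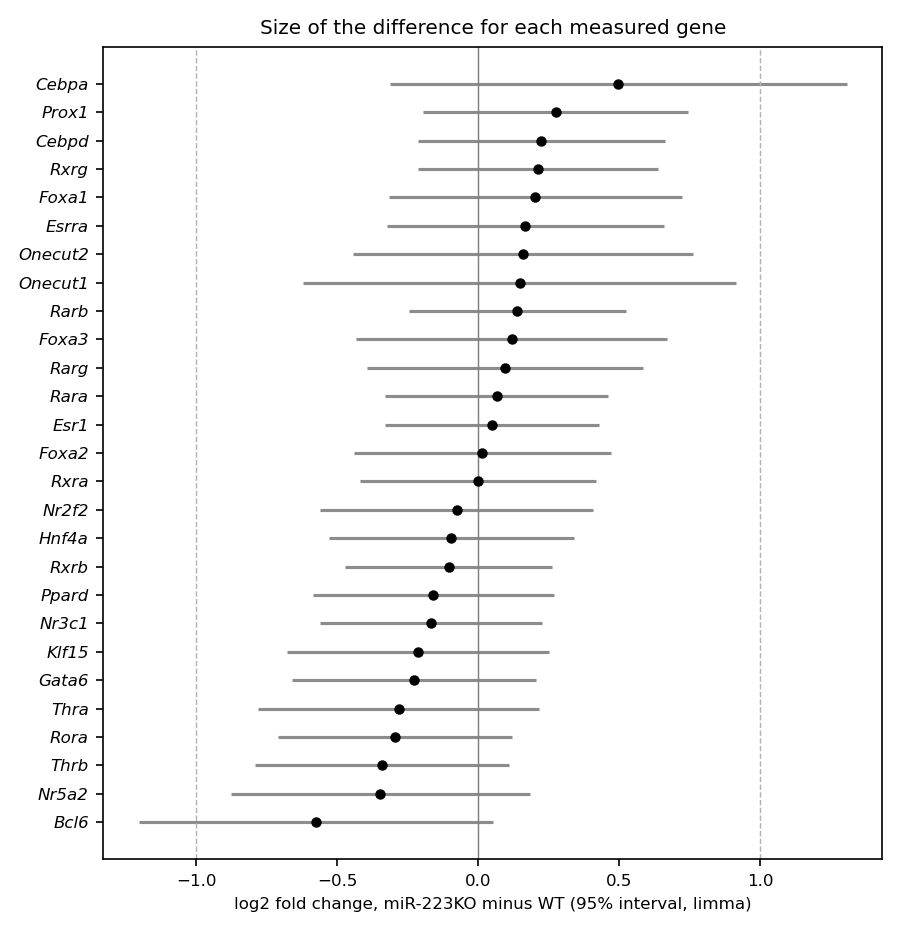
Log2 fold change of each tested member, miR-223KO minus WT, with its 95% interval from limma, ordered from the highest to the lowest. All 27 intervals include 0, and only those of Bcl6 and Cebpa cross the dashed lines at -1 and 1.

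Factors that define the hepatocyte lineage were all measured. Of the 9 genes, 6 were higher and 3 lower in miR-223KO livers, with a median log2 fold change of 0.12 and none past the test. Nr5a2, the receptor LRH-1 that drives bile acid and cholesterol genes, read 0.44, 0.69, -0.38 and 0.36 in miR-223KO livers, against 0.84, 0.62 and 0.41 in the 3 WT livers with an unflagged spot. A single miR-223KO sample, replicate 3, lay far below the rest, and the other miR-223KO values lay close to those of WT. The log2 fold change was -0.35 (SE 0.25, limma adjusted p = 0.98). It was -0.13 without miR-223KO replicate 3 and -0.15 with flagged spots kept.

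Prox1 encodes a homeobox factor that hepatocytes share with lymphatic endothelium and that represses bile acid synthesis genes. It read 0.07, -0.17, 0.09 and 0.34 in miR-223KO livers, against -0.06, 0.35, -0.69 and -0.37 in WT livers. The highest value of each genotype was nearly equal, and the WT samples of slide 2 were the lowest. Its log2 fold change was 0.28 (SE 0.22, limma adjusted p = 0.98). The other measured Prox1 probes gave differences of -0.18 and 0.05, so its probes stood on both sides of 0.

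Hnf4a, the receptor at the centre of the hepatocyte network, averaged -0.26 ± 0.06 in miR-223KO livers (SD, n = 4) and -0.17 ± 0.32 in WT livers (SD, n = 3). The difference was -0.09 (SE 0.20, limma adjusted p = 0.992), with a 95% interval of -0.53 to 0.34. Its other tested probe gave -0.32, from 0.34 on slide 1 and -0.97 on slide 2. That probe had an unadjusted p of 0.233 in the limma fit of every probe on its own. The forkhead pioneer factors, which open chromatin at liver enhancers, differed by 0.20 for Foxa1 (SE 0.24), 0.01 for Foxa2 (SE 0.21) and 0.12 for Foxa3 (SE 0.26), with Foxa1 at -0.04 from Cy5 alone. Onecut1, a cut-homeobox factor of hepatocytes and bile ducts, averaged 0.18 ± 0.49 in miR-223KO livers and 0.03 ± 0.93 in WT livers (SD, n = 4 each). Onecut2, its close relative, averaged 0.53 ± 0.76 in miR-223KO livers and 0.37 ± 0.06 in WT livers (SD, n = 4 each). The WT samples of Onecut2 lay close together, and the wide miR-223KO spread came from high ratios on slide 1 and a low one on slide 2. In miR-223KO replicates 1 and 2, on slide 1, its processed Cy3 intensity was 1692 and 1948, against 2722 to 3447 on the other arrays. Its Cy5 intensity was 2377 and 3773 there, and 2009 to 2914 elsewhere. The part of the reference spot in these ratios was not tested. Gata6, a zinc finger factor of early liver development, averaged 0.11 ± 0.29 in miR-223KO livers and 0.34 ± 0.27 in WT livers (SD, n = 4 each). From Cy5 alone the brightest probes of Gata6 and Onecut2 turned in sign, to 0.20 and -0.21. For these 6 genes, limma's adjusted p was 0.98 or above.

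Cebpa, the C/EBP factor that keeps adult hepatocytes out of the cell cycle and drives gluconeogenic genes, had the largest positive log2 fold change of the 27 members, and it rested on 1 array. Its log2 ratios were 0.01, 1.81 and 0.11 in the 3 miR-223KO livers with an unflagged spot, against 0.24, 0.27 and -0.06 in the 3 such WT livers. Only miR-223KO replicate 2 was high. The fold change was 0.50 (SE 0.38, limma adjusted p = 0.98), and it was -0.09 without that replicate. On that array the processed Cy3 intensity of Cebpa was 4392, against 16896 to 27144 on the other arrays, while Cy5 was 13669 there and 16296 to 25569 elsewhere. Taken channel by channel, miR-223KO minus WT came to -0.07 in Cy5 and to -0.56 in Cy3. The part of the reference spot in the fold change was not tested further. The other Cebpa probe had too few unflagged spots for a test, and its unflagged values averaged 0.07 in 2 miR-223KO livers and 0.19 in 2 WT livers.

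Cebpd, a C/EBP factor induced in the acute phase response, read -0.44, -0.53, 0.12 and -0.28 in miR-223KO livers, against -0.84, -0.14, -0.44 and -0.61 in WT livers. The highest value was a miR-223KO sample and the lowest a WT sample, with overlap between them. Between genotypes the log2 fold change was 0.22 (SE 0.21, limma adjusted p = 0.98).

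The retinoid X receptors, which pair with many other nuclear receptors, were all measured. Rxrg, a form better known from muscle and brain, read -0.27, -0.02, -0.17 and -0.30 in miR-223KO livers, against -0.82, -0.44, -0.40 and 0.06 in WT livers. Of the WT samples 3 lay below all miR-223KO samples and the other lay above them. Its log2 fold change was 0.21 (SE 0.20, limma adjusted p = 0.98). Rxra, the main form in hepatocytes, averaged 0.37 ± 0.27 in miR-223KO livers and 0.37 ± 0.24 in WT livers (SD, n = 4 each). Rxrb averaged -0.18 ± 0.05 in miR-223KO livers and -0.07 ± 0.18 in WT livers (SD, n = 4 each), and its other probe had a difference of 0.10 with the opposite sign.

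Retinoic acid receptors had log2 fold changes of 0.07 for Rara, 0.14 for Rarb and 0.09 for Rarg, with Rara at -0.02 from Agilent's processed signals. Rarb, whose own promoter responds to retinoic acid, read 0.10, 0.02, 0.31 and -0.20 in miR-223KO livers, against -0.29, -0.05, -0.04 and 0.05 in WT livers. The miR-223KO samples held values above all WT samples and a value below all but the lowest of them. Its SE was 0.18, with a limma adjusted p of 0.98. Rarb was dim, with processed Cy5 intensities of 145 to 376. It was well above background on 4 of 4 miR-223KO arrays and 2 of 4 WT arrays.

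Both thyroid hormone receptors, which switch genes of lipid and cholesterol metabolism on in the presence of hormone, were lower in miR-223KO livers on each of their tested probes, also with arrays centred on their medians, from Agilent's processed signals and from Cy5 alone. None passed the test. Thrb, the main form in hepatocytes, read -0.27, -0.10, -0.47 and -0.42 in miR-223KO livers, against -0.32, -0.31, 0.52 and 0.22 in WT livers. On slide 2 both WT samples lay above both miR-223KO samples, and on slide 1 both lay below them. This gave a log2 fold change of -0.34 (SE 0.21, limma adjusted p = 0.98), and the other measured Thrb probes gave -0.23 and -0.29. Thra averaged 0.31 ± 0.30 in miR-223KO livers and 0.59 ± 0.46 in WT livers (SD, n = 4 each), a difference of -0.28 (SE 0.24). Its other probe gave -0.27. Vdr, the vitamin D receptor, was well above background on 1 of 4 miR-223KO arrays and 1 of 4 WT arrays, so it was not tested.

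Among steroid receptors, Nr3c1 encodes the glucocorticoid receptor, which hepatocytes use to induce gluconeogenic and stress genes. Its brightest probe read 0.07, 0.59, 0.52 and 0.48 in miR-223KO livers, against 0.80, 0.60, 0.37 and 0.55 in WT livers. Replicate 1 of miR-223KO was the lowest and the others lay among the WT samples. miR-223KO minus WT was -0.17 (SE 0.19, limma adjusted p = 0.98). All 4 measured Nr3c1 probes were lower in miR-223KO livers, by -0.17, -0.33, -0.39 and -0.09 on the log2 scale, but with arrays centred on their medians the brightest stood at 0.01. The probe at -0.39 had an unadjusted p of 0.0439 in the fit of every probe on its own, the only one of 49 tested member probes under 0.05, where 4.54% of all probes were under it. On it the values were -0.09, -0.33, -0.15 and -0.54 in miR-223KO livers, against 0.30, -0.12, 0.10 and 0.19 in WT livers. WT replicate 2 lay between miR-223KO values. Esr1, the oestrogen receptor alpha, averaged -0.11 ± 0.21 in miR-223KO livers and -0.16 ± 0.12 in WT livers (SD, n = 4 each).

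COUP-TF receptors compete with HNF4A and retinoid receptors for DNA sites. Nr2f2, which is also a marker of veins, read -0.26, 0.12, 0.52 and -0.30 in miR-223KO livers, against 0.24, 0.22, 0.35 and -0.43 in WT livers on its brightest probe. The ranges nearly coincided. The log2 fold change was -0.08 (SE 0.23, limma adjusted p = 0.996), and the other probes gave 0.15 and -0.19. Its sign depended on the scaling, at 0.10 with arrays centred on their medians and at 0.13 from Cy5 alone. Nr2f1 was above background on 0 of the 8 arrays. Nr2f6 was bright on all 8 arrays, but outlier flags left 3 miR-223KO values and 2 WT values, too few for the test.

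Receptors tied to lipid use and the clock were measured as well. Rora, a receptor that activates clock genes, read -0.42, -0.32, -0.05 and -0.32 in miR-223KO livers, against 0.34, -0.41, 0.09 and 0.05 in WT livers. The miR-223KO samples lay below 3 of the 4 WT samples, and WT replicate 2 lay among them. Between genotypes the log2 fold change was -0.30 (SE 0.20, limma adjusted p = 0.98), and the other measured probes gave -0.04 and -0.31. Ppard, a fatty acid sensor, averaged 0.52 ± 0.16 in miR-223KO livers (SD, n = 4) and 0.68 ± 0.23 in WT livers (SD, n = 3). Esrra, an orphan receptor that drives mitochondrial genes with PGC-1 coactivators, averaged -0.13 ± 0.35 in miR-223KO livers and -0.30 ± 0.41 in WT livers (SD, n = 4 each).

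Bcl6, a zinc finger repressor that holds down growth hormone responsive and lipid genes in liver, had the largest negative log2 fold change and the smallest p of the members. Its log2 ratios were -1.47, -0.38, -0.44 and -1.52 in miR-223KO livers, against -0.58, 0.25, -0.93 and -0.24 in WT livers. The lowest values were those of miR-223KO replicates 1 and 4, while replicates 2 and 3 lay within the WT range. Its log2 fold change was -0.58 (SE 0.30, unadjusted p = 0.0694, limma adjusted p = 0.98). It was lower on both slides, by -0.76 on slide 1 and -0.39 on slide 2. Processed Cy5 intensity was 226, 721, 1069 and 478 in miR-223KO livers, against 824, 1405, 439 and 844 in WT livers. Rebuilt for each channel, miR-223KO minus WT came to -0.31 in Cy5 and to 0.27 in Cy3. The authors' deposited table gives a log2 fold change of -0.79 for this probe.

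Klf15, a zinc finger factor that controls amino acid breakdown and gluconeogenesis in fasting, averaged -0.44 ± 0.20 in miR-223KO livers (SD, n = 3) and -0.23 ± 0.31 in WT livers (SD, n = 4) on its brightest probe. Its other probe averaged -0.14 ± 0.22 in miR-223KO livers and -0.44 ± 0.32 in WT livers (SD, n = 4 each). The differences, -0.21 and 0.30, had opposite signs, but with arrays centred on their medians they were 0.02 and 0.50. Cux2, a cut-homeobox repressor that is more active in female than in male mouse liver, was above background on 0 of the 8 arrays with either probe.

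Klf15 had the widest disagreement between probes of the same gene. Of 14 members with more than 1 measured probe, 5 had probes on both sides of 0, namely Klf15, Nr2f2, Prox1, Rarg and Rxrb. The count and the genes depended on the scaling. With arrays centred on their medians there were again 5, Gata6, Nr2f2, Nr3c1, Prox1 and Rora. From Agilent's processed signals there were 6. From Cy5 alone there were 9 of the 14, among them Esr1, Hnf4a and Onecut2. The range between probes of a gene had a median of 0.212 and reached 0.509, close to the size of the largest member differences. Of the 49 tested probes, 24 were higher and 25 lower in miR-223KO livers.

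**Figure D4:**
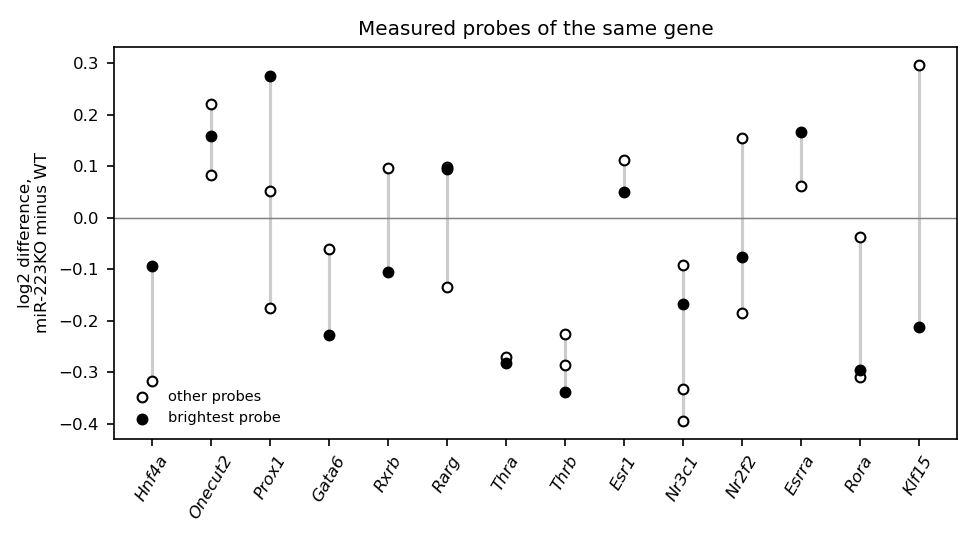
Log2 difference between miR-223KO and WT for every tested probe of the 14 members with more than 1, the brightest probe filled and the others open. The probes of Klf15 lie at -0.21 and 0.30, and those of Thra, Thrb and Nr3c1 all lie below 0.

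The slides were compared because each held both genotypes. In 18 of 27 members the miR-223KO minus WT difference had opposite signs on slides 1 and 2, as it had in 54.8% of all features. Foxa1 stood at 0.80 on slide 1 and -0.40 on slide 2, and Onecut2 at 0.71 on slide 1 and -0.40 on slide 2. Esrra and Foxa3 ran the other way, at -0.37 and -0.43 on slide 1 and 0.71 and 0.67 on slide 2. On slide 1, Cy3 was low for Foxa1 in miR-223KO replicate 2 and for Onecut2 in miR-223KO replicates 1 and 2. The part of these reference spots in the slide differences was not tested. Thrb stood at 0.13 on slide 1 and -0.81 on slide 2, and Prox1 at -0.19 on slide 1 and 0.74 on slide 2. A limma test of the difference between the slides, chosen after the data were seen, gave an unadjusted p under 0.05 for 8 of 27 members, against 9.62% of all features. These were Foxa1, Foxa3, Onecut2, Esrra, Thrb, Prox1, Rxra and Foxa2. None passed after adjustment over all features (smallest limma adjusted p of a member 0.468), and 0 of all features did. With 2 samples of each genotype on a slide, samples and slides cannot be told apart in these differences.

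**Figure D5:**
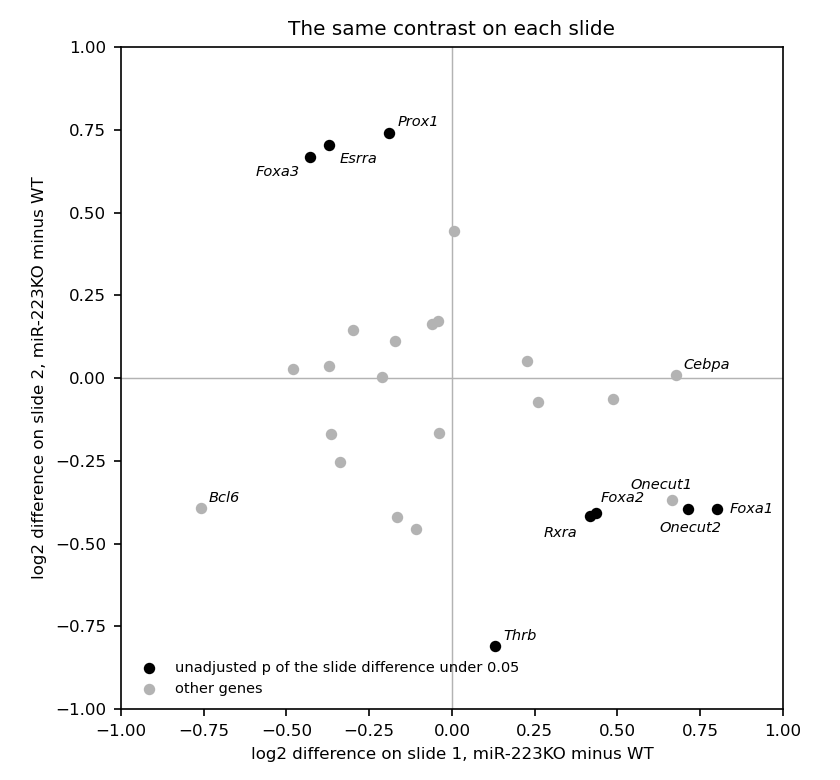
Log2 difference between miR-223KO and WT on slide 1 (x axis) and on slide 2 (y axis) for the 27 tested members, each from 2 samples of each genotype or fewer where spots were flagged. Black points had an unadjusted p under 0.05 for the difference between the slides. Bcl6 lies in the lower left, at -0.76 and -0.39, and 18 points lie in the upper left and lower right.

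Other nuclear receptors gave a similar picture. Of 29 listed, 20 were tested, 8 higher and 12 lower, with 1 below an unadjusted p of 0.05 against 4.68% of all features, and with a median of -0.06. That gene was Nr0b2, the small heterodimer partner SHP, which represses bile acid synthesis and binds LRH-1 and HNF4A. It read -1.06, -0.66, 0.12 and -0.24 in miR-223KO livers, against 0.44, 0.02, 0.41 and -0.19 in WT livers. The miR-223KO samples of slide 1 were lowest and those of slide 2 lay within or at the edge of the WT range. Its log2 fold change was -0.63 (SE 0.25, unadjusted p = 0.0204, limma adjusted p = 0.98). Nr1h4, the bile acid receptor FXR, which induces Nr0b2, read 0.60, 0.56, -0.61 and 0.32 in miR-223KO livers, against 0.75, 0.61 and 0.73 in the 3 WT livers with an unflagged spot. Its groups did not overlap, as in 1.44% of all features in that direction, but its log2 fold change of -0.48 (SE 0.27) had an unadjusted limma p of 0.0904.

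All 20 coregulators listed, the proteins that receptors recruit to switch genes on or off, were tested, 9 higher and 11 lower, with a median of -0.03. On the brightest probes, Ppargc1b, the coactivator PGC-1β, stood alone under an unadjusted p of 0.05, 1 of 20 beside 4.68% of all features. It read 0.48, -0.50, 0.08 and -0.06 in miR-223KO livers, against 0.57, 0.66, 0.51 and 0.14 in WT livers. Replicate 1 of miR-223KO lay among the WT samples and the others below them. This gave a log2 fold change of -0.47 (SE 0.22, unadjusted p = 0.0453, limma adjusted p = 0.98), and its other probes gave -0.39 and -0.19. The acetyltransferase Ep300 stood at 0.30, with another probe of the opposite sign. Crebbp stood at -0.27 on its brightest probe, and its other probes gave -0.42 and -0.155. The probe at -0.42 had an unadjusted p of 0.039 in the limma fit of every probe on its own. In that fit 4.54% of all probes were under 0.05.

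Among 28 other liver transcription factors, 25 were tested, 13 higher and 12 lower, with 2 higher and 1 lower at an unadjusted p under 0.05, against 2.31% and 2.37% of all features. Foxo1, which drives gluconeogenic genes when insulin is low, read 0.84, 0.45, 0.69 and 0.27 in miR-223KO livers, against -0.16, 0.08, -0.02 and -0.16 in WT livers. Its groups stood apart on the brightest probe, as 1.65% of all features did in that direction. The log2 fold change there was 0.62 (SE 0.18, unadjusted p = 0.00371, limma adjusted p = 0.98), while its other probe gave -0.09. Nfia, a nuclear factor I protein, stood at 0.49 (SE 0.22, unadjusted p = 0.0428, limma adjusted p = 0.98) and its other probe at 0.28. Klf10, a zinc finger factor induced by TGF-β, stood at -0.57 (SE 0.23, unadjusted p = 0.0239, limma adjusted p = 0.98), from -1.10 on slide 1 and -0.05 on slide 2.

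Genes that the receptors act on were set beside them. Of 17 hepatocyte genes bound by HNF4A, 7 were tested, 2 higher and 5 lower, with a median of -0.10. On the brightest probes none was under an unadjusted p of 0.05. Ttr, which encodes transthyretin, had the smallest p among them at 0.33, with a log2 fold change of -0.22. Apob stood at -0.09 on its brightest probe. Its other probe stood at -0.65, with an unadjusted p of 0.0252 in the limma fit of every probe on its own. In that fit 4.54% of all probes were under 0.05. Of 17 glucocorticoid receptor targets, 11 were tested, 7 higher and 4 lower, with a median of 0.13 and with 1 under an unadjusted p of 0.05, beside 4.68% of all features. Dusp1, a phosphatase of MAP kinases that glucocorticoids induce, read -0.33, -0.87, -0.56 and -0.53 in miR-223KO livers, against -0.02, 1.13, 0.12 and -0.18 in WT livers. The groups did not overlap, as in 1.44% of all features in that direction, and WT replicate 2 was far above the rest. Its log2 fold change was -0.84 (SE 0.25, unadjusted p = 0.00442, limma adjusted p = 0.98). Gadd45b, a stress response gene, stood apart in the other direction, as 1.65% of all features did, at 0.36 (SE 0.19, unadjusted p = 0.0748, limma adjusted p = 0.98), and Cdkn1a stood at 0.29 with an unadjusted p of 0.135.

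Thyroid hormone targets were tested for 6 of 8 genes, 4 higher and 2 lower, with a median of 0.10 and with 1 under an unadjusted p of 0.05, beside 4.68% of all features. Gpd2, the mitochondrial glycerol-3-phosphate dehydrogenase, read 0.66, 1.14, 0.91 and 0.58 in miR-223KO livers, against 0.38, 0.26, 0.14 and 0.25 in WT livers. Every miR-223KO sample lay above every WT sample, as in 1.65% of all features, with a log2 fold change of 0.56 (SE 0.18, unadjusted p = 0.00706, limma adjusted p = 0.98). Among 10 retinoic acid targets, 7 were tested, 5 higher and 2 lower, with a median of 0.18 and likewise 1 under an unadjusted p of 0.05. Tgm2, a transglutaminase, read 0.17, 0.62, 0.19 and -0.34 in miR-223KO livers, against -0.61, -0.40, -1.05 and -0.33 in WT livers. Its log2 fold change was 0.75 (SE 0.23, unadjusted p = 0.00415, limma adjusted p = 0.98), with the lowest miR-223KO sample just under the highest WT sample. Its other probes gave 0.68 and 0.47. Of 9 growth hormone and STAT5 genes, 8 were tested, 4 higher and 4 lower, with none under an unadjusted p of 0.05. Stat5b stood at -0.27 and Ghr, the growth hormone receptor, at -0.26, each with another probe above 0. In none of these lists did a gene pass after adjustment over all features.

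Markers of liver cell types moved beside the members as follows, each as the mean log2 ratio of the list's tested genes centred over the arrays. Of 10 hepatocyte markers 3 were tested, and Tat, Cps1 and Cyp2e1 were bright on all 8 arrays but had too few unflagged spots. The level of the 3 tested, Alb, Apoa1 and Ttr, was -0.41 to -0.01 in miR-223KO livers, against 0.03 to 0.79 in WT livers, without overlap. How often such a level stands apart over all features was not computed. Alb stood at -0.66 (SE 0.25, unadjusted p = 0.0178, limma adjusted p = 0.98), Apoa1 at -0.55 and Ttr at -0.22. WT replicate 4 was the highest sample for Alb and Apoa1, at 3.06 and 2.41. Taken channel by channel, miR-223KO minus WT was -0.27 in Cy5 and 0.39 in Cy3 for Alb. It was -0.18 and 0.37 for Apoa1, and -0.36 and -0.14 for Ttr. The part of the reference spots was not tested. The 7 macrophage markers were at -0.21 to 0.44 in miR-223KO livers, against -0.37 to 0.52 in WT livers, with 6 higher and 1 lower. Csf1r stood at 0.54 (unadjusted p = 0.0173, limma adjusted p = 0.98), Adgre1 at 0.51 and Cd68 at 0.49. Timd4 stood at 0.21, Clec4f at 0.19, Vsig4 at 0.17 and Marco at -0.04. The 10 endothelial markers were at -0.02 to 0.14 in miR-223KO livers, against -0.20 to -0.01 in WT livers. The 5 neutrophil markers tested were at 0.0119 to 0.136 in miR-223KO livers, against -0.187 to 0.0106 in WT livers, with 3 higher and 2 lower. S100a9 stood at 0.61 among them (unadjusted p = 0.00958, limma adjusted p = 0.98), Ltf at 0.19, Ngp at 0.07, Mpo at -0.04 and Camp at -0.12. The differences of the remaining lists were -0.16 for 7 cholangiocyte markers, 0.06 for 10 stellate cell and fibroblast markers, -0.04 for 6 lymphocyte markers, -0.37 for 2 adipocyte markers and -0.22 for 3 pancreas markers. None of these marker genes passed after adjustment. Their part in the members' values was not tested.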

How the data were processed

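Per the labels, Trizol and column purified liver RNA was turned into Cy5-labelled cDNA, with the reference in Cy3 on all 8 arrays and dyes never swapped. Feature Extraction 12.0.3.1 (protocol GE2_1200_Jun14, grid of mm9) read the arrays, per the file headers. The deposited files give the median intensity of each spot and of its background, an intensity that Agilent's software had corrected for background and dye, and the log10 ratio of the corrected Cy5 and Cy3 signals. The authors' table holds the log2 of that ratio: the difference between them had an SD of at most 0.019, and the fold change in it matched the difference of group means (miR-223KO less WT) within 5.2e-07.

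From the deposited median intensity, background was removed with normexp at an offset of 50 and log2 ratios were loess normalised within arrays, in limma 3.58.1 under R 4.3.3. Flagged local backgrounds were replaced by the array's median, outlier-flagged spots (2% to 5.67%) were left out, and spots of a probe were averaged. Tests needed a Cy5 signal well above background on 4 or more of 8 arrays and 3 or more unflagged values per group, and the brightest probe stood for a gene. Groups were compared with limma (two-sided, Benjamini-Hochberg over 14695 genes and 2060 unnamed probes, threshold 0.05). The median SE was 0.208 on the log2 scale, and the number of arrays limits the precision. Differences for 1 channel were rebuilt after Aquantile normalisation between arrays. The fit was tested on simulated data. The gene test needs no coordinates, and none are given for the members. Sequences of miR-223 come from RefSeq (GRCm38.p6), and probe sequences from the authors' table.

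The members, the gene lists and the rule for naming genes were chosen with earlier results of these data known. Values for every sample are given for members under an unadjusted p of 0.05 or without overlap, for the 3 largest positive and the 3 largest negative differences, and for the member with the smallest p in each group of related factors. Up to 3 genes with the smallest p are named from each further list, not all of them with values, and the other members and markers were named beyond that rule. Alternatives in background correction, scaling, filters, probes, blocks and left-out samples, 22 in all, are described at the end. The test of the difference between slides and the tissue genes for the Cy3 channel were chosen after the data were seen. Some genes of the lists are not reported here.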

Additional observations from a re-analysis of the deposited data

Results flagged for a closer look

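Among the tested members, 48 groups with 4 values were checked for a lowest or highest sample whose gap to its nearest neighbour, over the range of the group, was above Dixon's 95% critical value. A single group met this: Foxa1 in miR-223KO replicate 2 had a log2 ratio of 0.836, while the other 3 miR-223KO samples lay at 0.0573 to 0.169 and the WT samples at -0.31 to 0.65. A 95% critical value is one that about 1 in 20 groups pass by chance. Groups with fewer values, such as that of Cebpa, were not checked. On that array the processed Cy3 intensity of Foxa1 was 153, against 506 to 1091 on the other arrays, and its Cy5 intensity was 365, against 466 to 1268. The part of the reference spot in this value was not tested.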

How the results depend on the processing

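No member passed after adjustment in any of 22 alternatives (smallest limma adjusted p 0.842). Of all features, 2 passed in the fit reported, 4 with a normexp offset of 16, and 1 with median centring, Agilent processed signals, the deposited table, Cy5 alone, flagged spots kept or a gene's probes averaged, and 2 to 4 with 1 sample left out (4 without miR-223KO replicate 1). Members at an unadjusted p under 0.05, 0 as reported, were 1 when every probe stood on its own (Nr3c1) and 0 to 1 with 1 sample left out. That was Bcl6 without miR-223KO replicate 2, miR-223KO replicate 3 or WT replicate 3, at -0.77, -0.75 and -0.76, and Rora at -0.44 without WT replicate 2. Bcl6 was smaller, at -0.40, -0.39 and -0.37, without miR-223KO replicate 1, miR-223KO replicate 4 or WT replicate 2, and -0.22 from Cy5 alone. The members' median log2 fold change of 0.015 was 0.112 with median centring, which also moved the median of all features to 0.0814 and put 20 of 27 members above 0. It was 0.056 from Cy5 alone, -0.038 over every probe, and -0.087 (without miR-223KO replicate 2) to 0.041 with 1 sample left out. Cebpa turned to -0.05 from Cy5 alone, and it ranged from -0.09 (without miR-223KO replicate 2) to 0.82 with 1 sample left out. In the deposited table and with flagged spots kept, its other, brighter probe stood for the gene. That probe gave -0.09 and -0.19, while the probe reported here is at 0.30 in the deposited table. Nr2f2 turned to 0.10 with median centring, 0.13 from Cy5 alone, and it ranged from -0.25 to 0.03 with 1 sample left out, above 0 without miR-223KO replicate 1 or 4 or WT replicate 3. Nr3c1 turned to 0.01 with median centring. Why the sign of the same probe turned was not tested. The other 8 members with values for every sample kept their direction wherever they were tested, but their size moved by over 1.5 times. Over all alternatives Bcl6 ranged from -0.79 to -0.22, Nr5a2 from -0.58 to -0.13, Thrb from -0.45 to -0.18, Rora from -0.44 to -0.11, Prox1 from 0.05 to 0.45, Cebpd from 0.09 to 0.35, Rxrg from 0.07 to 0.41 and Rarb from 0.06 to 0.37. The values nearest 0 with 1 sample left out were those of Nr5a2 and Cebpd without miR-223KO replicate 3 (-0.13 and 0.09), Rarb likewise (0.06), Prox1 and Thrb without WT replicate 3 (0.11 and -0.18), and Rora and Rxrg without WT replicate 1 (-0.19 and 0.07).

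Replicate numbers of the labels recur in both groups, but samples with the same number did not deviate together (correlations -0.00163, 0.063, 0.00828 and -0.023). A low correlation cannot exclude a pairing of the samples. Replicates 1 and 2 of both groups lay on slide 1, and replicates 3 and 4 on slide 2. The numbers were not used as pairs in the fit reported. With the replicate number as a block, 1 member had an unadjusted p under 0.05 (Bcl6, limma unadjusted p = 0.0395, adjusted p = 0.989), Cebpa stood at -0.19, and 2 features passed after adjustment. Signal over background limits the dim members: Cux2, Nr2f1 and Vdr were not tested, and Nr2f6 was lost to outlier flags.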
